A study of Sus scrofa with 20 samples.

Results

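The genes described here encode the chains of MHC class I molecules and the proteins that load them with peptide, measured in peripheral blood mononuclear cells (PBMC) of weaned piglets. They were chosen by gene symbol: the heavy chains SLA-1, SLA-2 and SLA-3, the light chain B2M, the peptide transporter subunits TAP1 and TAP2, the loading proteins TAPBP, CALR and PDIA3, and the transcriptional activator NLRC5. Of these 10 genes 9 were carried by the array, among 13755 named genes, by 27 probe sets of 47845. No probe set carried the symbol CALR in the annotation used here, so calreticulin was not analysed here. A probe set is a group of probes read as 1 value, and the probe set of highest mean over the 20 arrays stood for its gene. All 9 of these main probe sets, and 24 of the 27, exceeded the array median on 16 or more arrays and were tested among 22127 probe sets.

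The study fed German Landrace piglets diets low (L), medium (M) or high (H) in phosphorus and calcium, with M as the recommended supply, and asked how PBMC respond. The arrays came from 6 L (3 females, 3 males), 7 M (4 females, 3 males) and 7 H animals (3 females, 4 males), each aged 63 days, with 1 array per animal. According to the methods, the males were castrated and littermates were included, and the litter is not in the labels. The values are deposited RMA values on the log2 scale, with medians of 4.29 to 4.46 per array and correlations of 0.890 to 0.974 between arrays. The means of the T cell and monocyte markers ran from 7.99 to 9.23 and from 7.66 to 9.78, and that of the erythroid markers from 8.92 to 11.93, so that RNA of erythroid cells was also present.

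MHC class I molecules display peptides from the inside of a cell to CD8+ T cells. The heavy chain folds in the endoplasmic reticulum with B2M and is held by calreticulin, PDIA3 (also named ERp57) and TAPBP (tapasin) next to the TAP1/TAP2 transporter, which brings in peptides made by the proteasome. In humans and mice NLRC5 activates the promoters of class I genes, and interferons raise the expression of most of these genes.

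TAP1, TAP2 and SLA-1 were 1.34-fold, 1.24-fold and 1.28-fold higher in H than in L animals, each at an unadjusted p under 0.05 in limma, but none of the 9 genes was called. Calls required p under 0.01 together with q under 0.21. The methods give these thresholds as equivalent, but in the fit used here the q threshold was the stricter. In H against L 0 of 9 genes were called, beside 0.0271% of all tested probe sets. For M against L the count was 0 beside 0%, and for H against M 0 beside 0.0226%. At p under 0.05, 3 of 9 genes differed between H and L, all of them higher in H, beside 8.57% of all probe sets, of which 4.52% were higher and 4.05% lower. In H against M 1 gene, TAP2, was higher at p under 0.05, beside 6.74% of all probe sets in either direction and 3.72% that were higher. In M against L 0 of 9 passed p under 0.05, beside 2.26% in either direction and 0.768% that were higher. The smallest q among the 9 genes was 0.494 for H against L and 0.665 for H against M. The genes were chosen with earlier results of these data known, and several of them vary together. Their counts beside the shares of all probe sets are therefore a description and no test.

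The median log2 difference of the 9 genes was 0.10 for H minus L, with 7 genes above 0, whereas it was −0.018 over all tested probe sets, of which 45.9% were above 0. For H minus M it was 0.16, with 7 genes above 0, beside 49.2% of all probe sets. For M minus L it was 0.020, with 5 genes above 0, beside 45.9%. The 3 comparisons share animals and are not independent of each other. In a mixture such as PBMC, fewer cells of a type and less RNA per cell cannot be told apart.

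The calls depended on how the arrays were weighted. With array weights, which give noisier arrays less influence, 3 of 9 genes were called in H against L: SLA-1 (log2 difference 0.45, q = 0.155), TAP1 (0.55, q = 0.164) and TAP2 (0.37, q = 0.183). In this fit 4.26% of all probe sets were called in H against L, 2.38% as higher in H, with 0% for M against L and 0.185% for H against M.

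**Figure D1:**
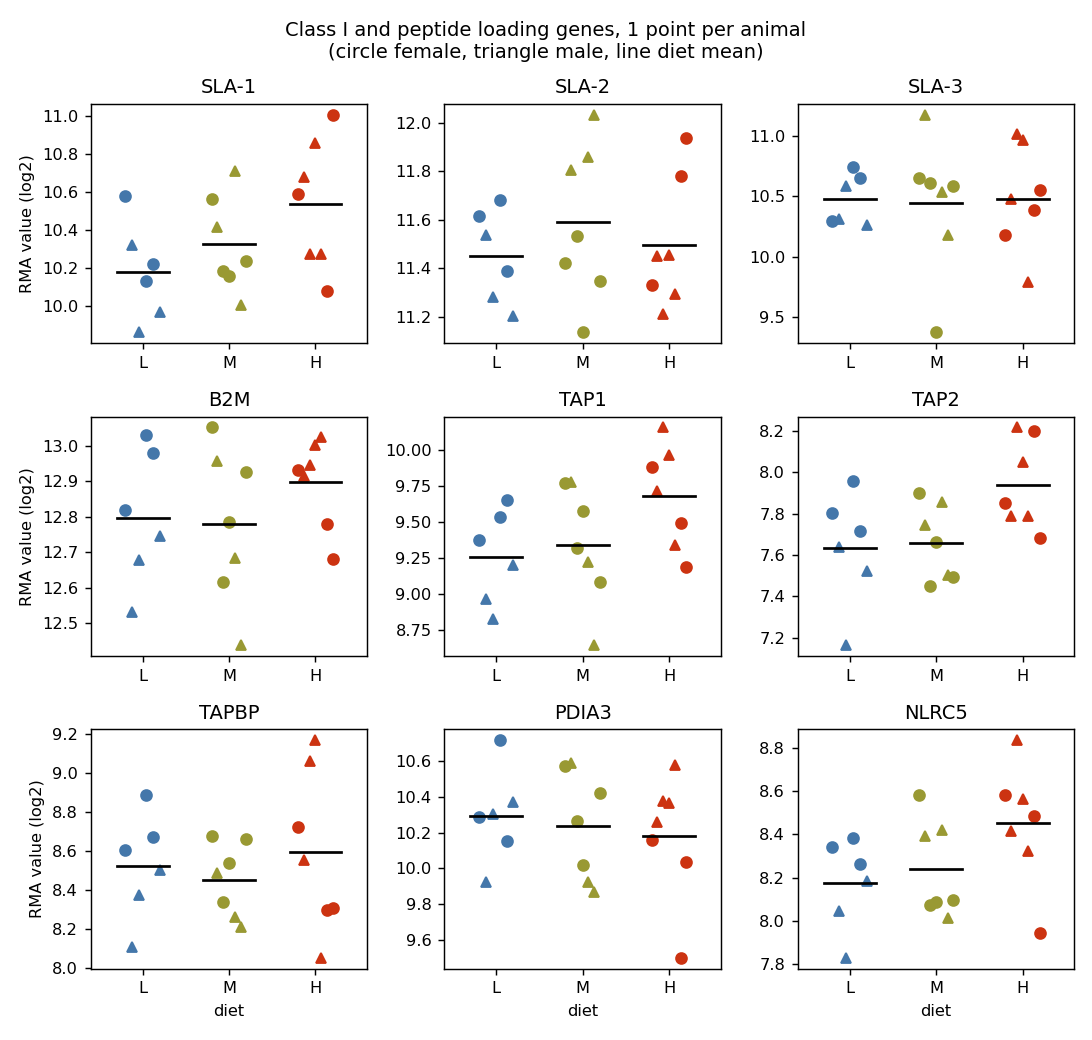
RMA values (log2, y axis) of the 9 genes by diet (L, M and H, x axis), with 1 point per animal (circles females, triangles males) and a line at the mean of each diet. The diets overlap for each gene, and for TAP2 all 7 H animals lie above the median of the L animals and above that of the M animals.

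The heavy chains present the peptide, and their differences were not tested against each other. SLA-1 was 10.58, 10.32, 9.86, 10.13, 10.22 and 9.97 in the L animals, ran from 10.01 to 10.71 in M animals (median 10.24) and from 10.08 to 11.01 in H animals (median 10.59). The M median lay close to the L median of 10.18, and 4 of 7 H animals exceeded all L animals while 3 lay among them. The H minus L difference was 0.36 ± 0.16 (SE, 95% confidence interval 0.03 to 0.69, limma, q = 0.506), and a two-sided exact permutation test over the 1716 splits of the animals gave p = 0.0606, where 0.000583 is the smallest p possible. H minus M was 0.22 ± 0.15 and M minus L 0.14 ± 0.16. The other 2 probe sets of SLA-1 had means of only 3.81 and 3.27 and were not tested. In RefSeq the name SLA-1 is also a synonym of SLA-3, SLA-5 and LOC100513601, so which heavy chain a probe set reads is uncertain.

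SLA-2 ran from 11.20 to 11.68 in L animals (median 11.47), from 11.14 to 12.03 in M animals (median 11.54) and from 11.21 to 11.94 in H animals (median 11.45). Only 2 of 7 H animals were above the L median, and H minus L was 0.04 ± 0.15 (SE, interval −0.27 to 0.36, exact permutation p = 0.749). The other probe set of SLA-2 differed by −0.06 ± 0.15 and correlated with the main one by r = −0.15 over the 20 arrays, so that both probe sets named SLA-2 ranked the animals differently.

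SLA-3 ran from 10.27 to 10.74 in L animals (median 10.45), from 9.38 to 11.18 in M animals (median 10.58) and from 9.79 to 11.01 in H animals (median 10.48). The M and H animals were spread more widely than the L animals, with SDs of 0.55, 0.43 and 0.21 in M, H and L, and H minus L was −0.0032 ± 0.23 (SE, interval −0.47 to 0.46, exact permutation p = 0.978). All 6 probe sets of SLA-3 carry the mark of the array maker for probes that also match other transcripts. Their H minus L differences ran from −0.75 to 0.19 and their correlations with the main probe set from 0.02 to 0.76. The most variable of them spanned 4.27 log2 units over the 20 animals, from 7.13 to 9.39 in L, 6.06 to 9.18 in M and 5.11 to 9.26 in H animals, whereas the main probe set spanned 1.80. Its H minus L difference of −0.75 ± 0.55 (SE) had an interval of −1.90 to 0.41. Heavy chain genes are polymorphic, and the part of sequence differences between animals in these values was not tested.

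B2M, the light chain that all class I heavy chains need, varied least, by 0.61 log2 units over the 20 animals. It ran from 12.53 to 13.03 in L animals (median 12.78), from 12.44 to 13.05 in M animals (median 12.78) and from 12.68 to 13.02 in H animals (median 12.93). No H animal was above all L animals, and H minus L was 0.10 ± 0.11 (SE, interval −0.13 to 0.34, exact permutation p = 0.272).

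TAP1 is a subunit of the transporter that carries peptides into the endoplasmic reticulum. It was 9.38, 8.96, 8.83, 9.54, 9.65 and 9.20 in the L animals (median 9.29), ran from 8.65 to 9.78 in M animals (median 9.32) and from 9.19 to 10.15 in H animals (median 9.72). The L and M animals had nearly the same median, and 4 of 7 H animals were above all L animals. The H minus L difference was 0.43 ± 0.19 (SE, interval 0.03 to 0.83, limma, q = 0.512, exact permutation p = 0.0507), H minus M was 0.35 ± 0.19 (q = 0.756) and M minus L 0.072 ± 0.19. All 4 probe sets of TAP1 were higher in H than in L animals, by 0.43, 0.42, 0.30 and 0.14, and those with differences of 0.43 and 0.42 passed p under 0.05. The probe set with the smallest difference also followed the main one least, with r = 0.49 against 0.89 and 0.86 for the others.

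TAP2 is the partner of TAP1 in the transporter. It was 7.81, 7.64, 7.17, 7.96, 7.72 and 7.52 in the L animals (median 7.68), ran from 7.45 to 7.90 in M animals (median 7.67) and from 7.68 to 8.22 in H animals (median 7.85). All 7 H animals were above the L median and above the M median, although 4 of them lay within the range of the L animals. The H minus L difference was 0.31 ± 0.13 (SE, interval 0.04 to 0.59, limma, q = 0.494, exact permutation p = 0.0431). It was the single gene of the 9 for which this exact test gave a p under 0.05. H minus M was 0.29 ± 0.13 (interval 0.03 to 0.56, q = 0.665), with an exact permutation p of 0.0245 over 3432 splits, and M minus L was 0.020 ± 0.13. Of the other probe sets of TAP2, 2 were higher in H than in L, by 0.39 ± 0.16 and 0.22 ± 0.13, and the dimmest, with a mean of 5.48, differed by −0.08 ± 0.23.

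In the RefSeq pig annotation the genes TAP2, PSMB8, TAP1 and PSMB9 follow each other. PSMB8 and PSMB9 are catalytic subunits of the immunoproteasome, which cuts peptides for the transporter. Beside 0.31 for TAP2 and 0.43 for TAP1, H minus L was −0.13 ± 0.18 for PSMB8 (SE, q = 0.841 in limma) and 0.16 ± 0.22 for PSMB9 (q = 0.834).

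TAPBP, which bridges the heavy chain to the transporter, ran from 8.11 to 8.89 in L animals (median 8.56), from 8.21 to 8.68 in M animals (median 8.49) and from 8.05 to 9.17 in H animals (median 8.56). The H animals covered the whole range of the L animals, and H minus L was 0.08 ± 0.17 (SE, interval −0.27 to 0.42, exact permutation p = 0.728). The other tested probe set of TAPBP differed by 0.03 ± 0.11 and correlated with the main one by r = −0.02. A further one had a mean of only 1.99 and was not tested. PDIA3, an oxidoreductase of the loading complex that also serves other glycoproteins, ran from 9.92 to 10.72 in L animals (median 10.30), from 9.87 to 10.59 in M animals (median 10.27) and from 9.50 to 10.58 in H animals (median 10.26). The 3 medians were close together, and H minus L was −0.11 ± 0.17 (interval −0.47 to 0.24, exact permutation p = 0.554).

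NLRC5, the activator of class I promoters, ran from 7.83 to 8.39 in L animals (median 8.22), from 8.01 to 8.58 in M animals (median 8.10) and from 7.95 to 8.84 in H animals (median 8.48). The H animals were mostly the higher ones, with 5 of 7 above all L animals, but 1 H female had 7.95, the second lowest value of the 13 H and L animals. H minus L was 0.28 ± 0.14 (SE, interval −0.01 to 0.57, limma, q = 0.563, exact permutation p = 0.0723). The other 2 probe sets of NLRC5 differed by 0.03 ± 0.17 each, and they correlated with the main one by r = 0.49 and 0.45.

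**Figure D2:**
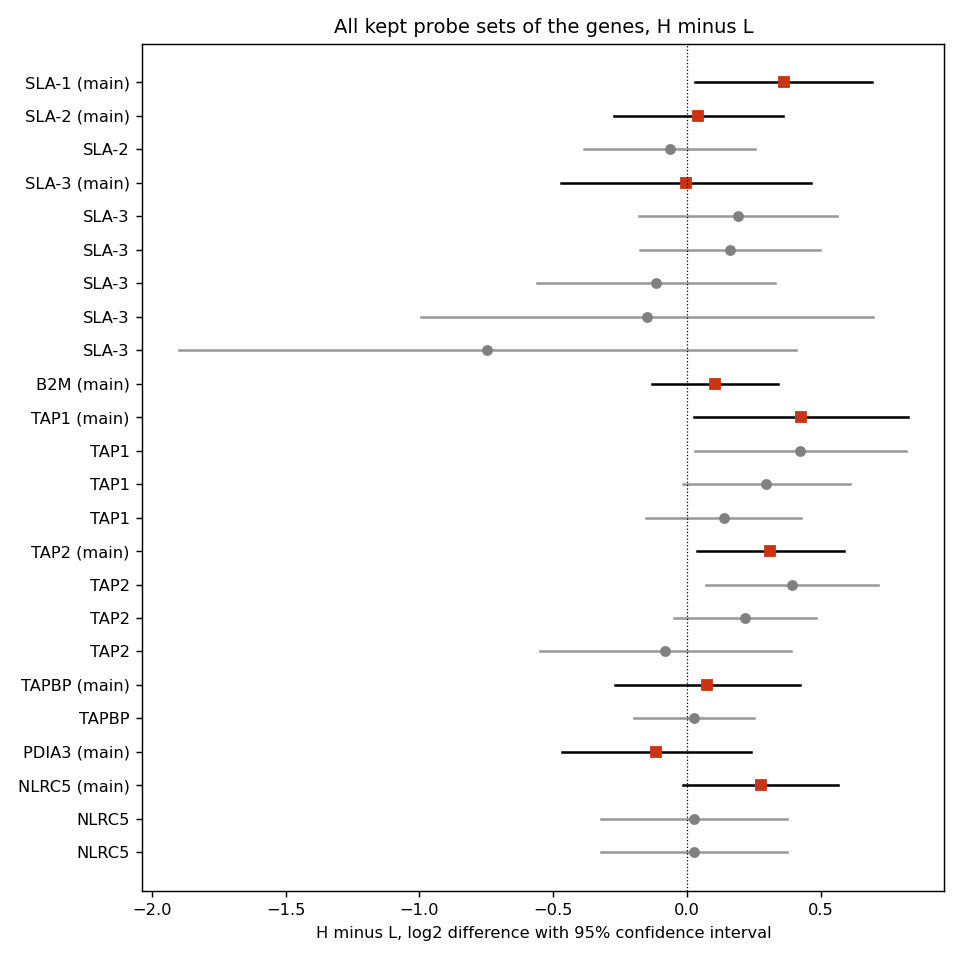
H minus L log2 differences (x axis) with 95% confidence intervals for the 24 tested probe sets of the 9 genes, with the main probe sets set apart by colour from the others. The 4 probe sets of TAP1 and 3 of the 4 of TAP2 lie above 0, and those of SLA-3 scatter from −0.75 to 0.19.

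Over the 20 animals Pearson's r and Spearman's rho were computed for all 36 pairs of the 9 genes, with permutation p-values adjusted over the pairs, and 9 pairs had an adjusted p of r under 0.05. These p-values are set against an r of 0. Over all pairs of genes, r after removal of diet and sex had a median of 0.03 and a 95th percentile of 0.65. The closest pair was TAP2 with NLRC5, with r = 0.87 and rho = 0.88 (permutation p = 1e-05, the smallest that 100000 permutations can give, adjusted p = 0.00036). TAP1 with NLRC5 followed with r = 0.84 and rho = 0.83 (permutation p = 2e-05, adjusted p = 0.00036). These relations use the main probe set of each gene alone. The other tested probe sets of NLRC5 followed its main one by only r = 0.49 and 0.45, and that of TAPBP by −0.02. Relations of these other probe sets with the genes were not tested.

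Without the 2 animals farthest from the median of the first gene, r was 0.80 for TAP2 with NLRC5 and 0.80 for TAP1 with NLRC5. Within the diets, TAP2 and NLRC5 had r of 0.93 in L, 0.92 in M and 0.76 in H animals, and TAP1 and NLRC5 had 0.89 in L, 0.65 in M and 0.91 in H animals. Both relations were positive within each diet, but the r within single diets were not tested. For TAP2 and TAP1 with NLRC5, r after removal of diet and sex was 0.85 and 0.82 (adjusted permutation p = 0.00018 for each).

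B2M went with TAP1 (r = 0.76, rho = 0.73), NLRC5 (r = 0.66, rho = 0.65), PDIA3 (r = 0.65, rho = 0.69) and TAPBP (r = 0.63, rho = 0.65). TAP1 also went with TAP2 (r = 0.73, rho = 0.72) and TAPBP (r = 0.72, rho = 0.70), and TAPBP with NLRC5 (r = 0.59, rho = 0.56). The adjusted permutation p of r of these pairs lay between 0.00108 and 0.0229. B2M with TAP2 had r = 0.52 (adjusted permutation p = 0.0656) and rho = 0.60 (adjusted permutation p = 0.0224), and r = 0.43 after removal of diet and sex (adjusted permutation p = 0.153). After removal of diet and sex 9 pairs again passed by r. Without the 2 farthest animals 6 did, and B2M with PDIA3 (r = 0.57), B2M with TAPBP (r = 0.53) and TAPBP with NLRC5 (r = 0.39) were no longer among them. After removal of diet and sex, r was 0.60 for B2M with TAPBP and 0.62 for TAPBP with NLRC5. It was 0.63 for TAP1 with TAP2 and 0.64 for B2M with NLRC5. These pairs lay below the 95th percentile of 0.65 over all pairs of genes, and the other pairs that passed after that removal lay above it.

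By r over the measured values, 0 of the pairs with a heavy chain passed. After removal of diet and sex, SLA-3 passed by rank with TAPBP (rho = 0.63, adjusted permutation p = 0.0145) and TAP1 (rho = 0.54, adjusted permutation p = 0.0479). Among themselves the heavy chains had r of 0.27 (SLA-1 with SLA-2), 0.25 (SLA-2 with SLA-3) and 0.23 (SLA-1 with SLA-3). SLA-2 had a negative r with B2M (−0.41, rho = −0.26, adjusted permutation p = 0.188), PDIA3 (−0.37), TAPBP (−0.35) and TAP1 (−0.33). The r of SLA-2 with B2M differed in sign between the diets, with 0.31 in L, −0.52 in M and −0.90 in H animals. The pair with a heavy chain closest to the threshold by r was SLA-3 with TAPBP (r = 0.47, rho = 0.51, adjusted permutation p = 0.114).

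**Figure D3:**
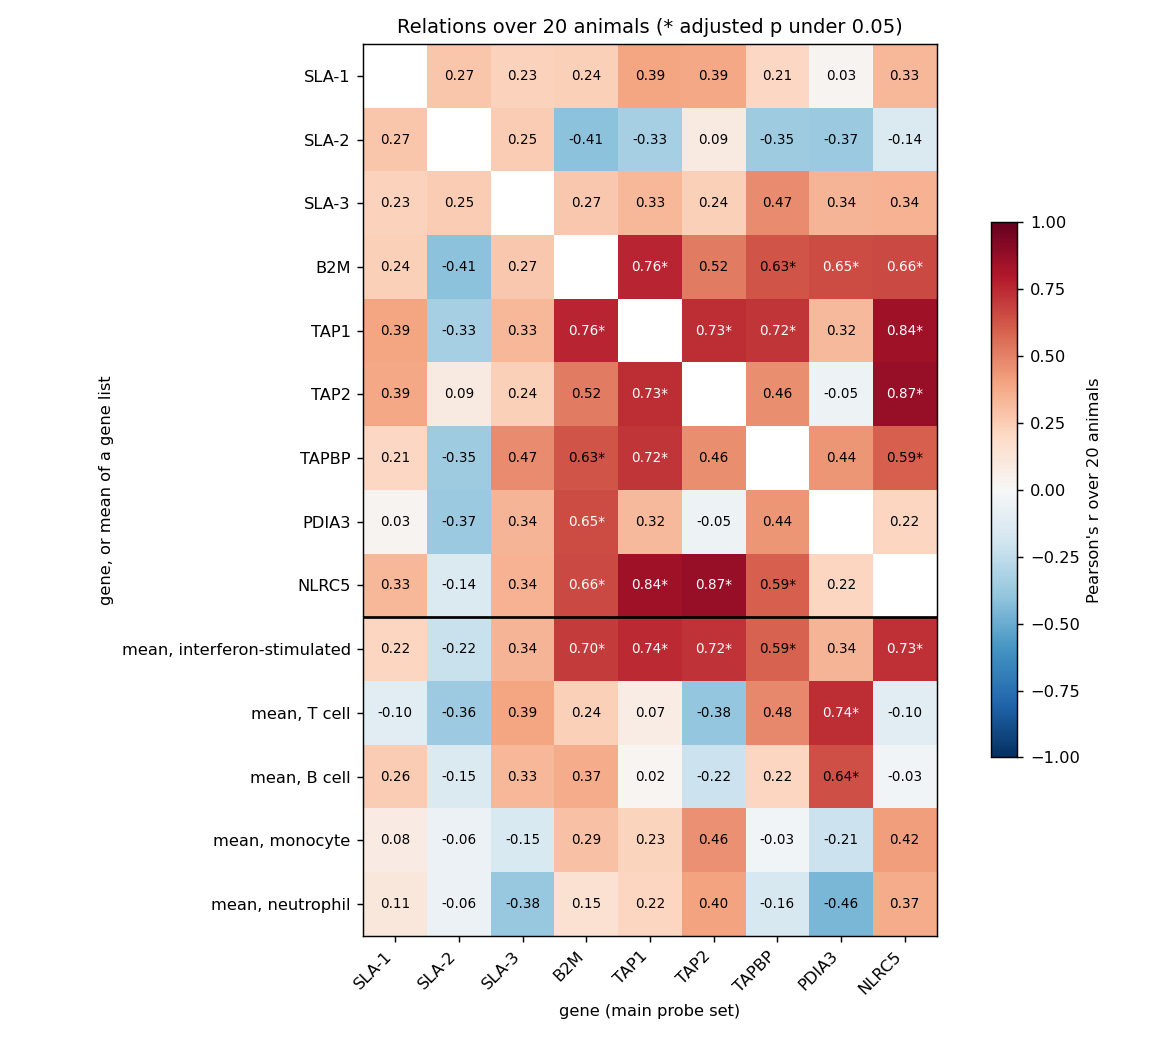
Pearson's r over the 20 animals for each pair of the 9 genes (upper block) and for each gene with the mean of 5 gene lists (lower block), on a colour scale from −1 to 1, with an asterisk where the adjusted permutation p is under 0.05. All asterisks are held by B2M, TAP1, TAP2, TAPBP, PDIA3 and NLRC5, and SLA-1, SLA-2 and SLA-3 hold none.

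Interferon-stimulated genes and markers of 8 cell types were measured in the same animals, and 0 of them were called for H against L in the fit used here. With its own filter and model, the study lists OAS1, IFIT3, DDX58, IL1R2, CXCR2, CSF3R, TREM1 and the T cell marker CD247 among the transcripts that differed between L and H. At p under 0.05, 4.52% of all probe sets were higher and 4.05% lower in H than in L animals. Of 25 tested interferon-stimulated genes 17 were higher in H than in L animals at p under 0.05 and 0 lower, with 0 calls and a median log2 difference of 0.85. Their mean was 9.51 ± 0.61 in H and 8.65 ± 0.89 in L animals (SD, n = 7 and 6), with ranges of 8.63 to 10.55 in H and 7.80 to 10.09 in L animals. Of the monocyte markers 4 of 6 were higher at p under 0.05 (median 0.79), of the neutrophil markers 4 of 10 (median 0.46), and of the T cell markers 3 of 8 were lower (median −0.37). Of the B cell markers 1 of 7 was lower (median −0.29), and of the NK and cytotoxic (0 of 7, median −0.12), dendritic (0 of 4, median 0.18), platelet (0 of 6, median 0.18) and erythroid markers (0 of 6, median −0.55) none passed in either direction. The erythroid markers had a median of −0.83 for H minus M, with 3 of 6 lower at p under 0.05. The mean of the monocyte markers ran from 8.49 to 9.78 in H and from 7.66 to 9.01 in L animals, and that of the T cell markers from 7.99 to 9.09 in H and from 8.81 to 9.23 in L animals. The part of cell composition in the differences of the class I genes was not tested beyond the covariate fits given here.

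The 9 genes were set against the means of 5 lists, which makes 45 relations, and 7 had an adjusted permutation p of r under 0.05. How many of all genes would pass the same tests was not computed. With the mean of the interferon-stimulated genes r was 0.74 for TAP1 (rho = 0.71), 0.73 for NLRC5 (rho = 0.69), 0.72 for TAP2 (rho = 0.68), 0.70 for B2M (rho = 0.73) and 0.59 for TAPBP (rho = 0.50). The adjusted permutation p of these r ran from 0.00405 to 0.0411. By rank TAPBP did not pass (adjusted permutation p = 0.13). PDIA3 (r = 0.34), SLA-3 (0.34), SLA-1 (0.22) and SLA-2 (−0.22) did not pass. By rank after removal of diet and sex, SLA-3 (rho = 0.61, adjusted permutation p = 0.0383) and PDIA3 (rho = 0.57, adjusted permutation p = 0.0496) passed, though not by r. TAP2 did not pass by that rank measure (rho = 0.54, adjusted permutation p = 0.0719). After removal of diet and sex r was 0.67 for TAP1, 0.64 for NLRC5, 0.62 for TAP2, 0.69 for B2M and 0.61 for TAPBP. Without the 2 farthest animals only B2M passed among these 5 genes (r = 0.72, adjusted permutation p = 0.0128), with r of 0.61 for TAP1, 0.55 for NLRC5, 0.55 for TAP2 and 0.48 for TAPBP. Leaving out the farthest animals also narrows the range of the list mean. Whether the relations rest on those animals can therefore not be told from this. After removal of diet and sex, the same rule left r of 0.65 for TAP1, 0.54 for NLRC5, 0.45 for TAP2, 0.70 for B2M and 0.46 for TAPBP.

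With the mean of the interferon-stimulated genes as a covariate, a fit chosen after seeing the data, H minus L was 0.11 ± 0.18 for TAP1, 0.13 ± 0.13 for TAP2, 0.07 ± 0.14 for NLRC5 and 0.38 ± 0.19 for SLA-1 (SE), and 0 of 9 genes had a p under 0.05. Without the covariate these differences were 0.43 for TAP1, 0.31 for TAP2, 0.28 for NLRC5 and 0.36 for SLA-1, and the changes between the fits were not tested. The mean used as the covariate itself was 9.51 in H and 8.65 in L animals. The part of the interferon-stimulated genes in the diet differences was not tested. With the means of the neutrophil and monocyte markers as covariates, H minus L was 0.49 ± 0.19 for SLA-1, 0.49 ± 0.24 for TAP1, 0.25 ± 0.16 for TAP2 and 0.20 ± 0.17 for NLRC5, and 1 gene, SLA-1, had a p under 0.05.

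PDIA3 followed the T cell markers. Its r with their mean was 0.74 (rho = 0.67, adjusted permutation p of r = 0.00405), and 0.83 without the 2 farthest animals. With the mean of the B cell markers its r was 0.64 (adjusted permutation p = 0.0154). That relation did not pass by rank (rho = 0.53, adjusted permutation p = 0.113) or without the 2 farthest animals (r = 0.52, adjusted permutation p = 0.213). TAPBP had r = 0.48 with the mean of the T cell markers (adjusted permutation p = 0.18). After removal of diet and sex this r was 0.67 (adjusted permutation p = 0.0132). Of the 18 relations with monocyte and neutrophil markers 0 passed, and the largest were r = −0.46 for PDIA3 with the neutrophil and 0.46 for TAP2 with the monocyte markers.

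**Figure D4:**
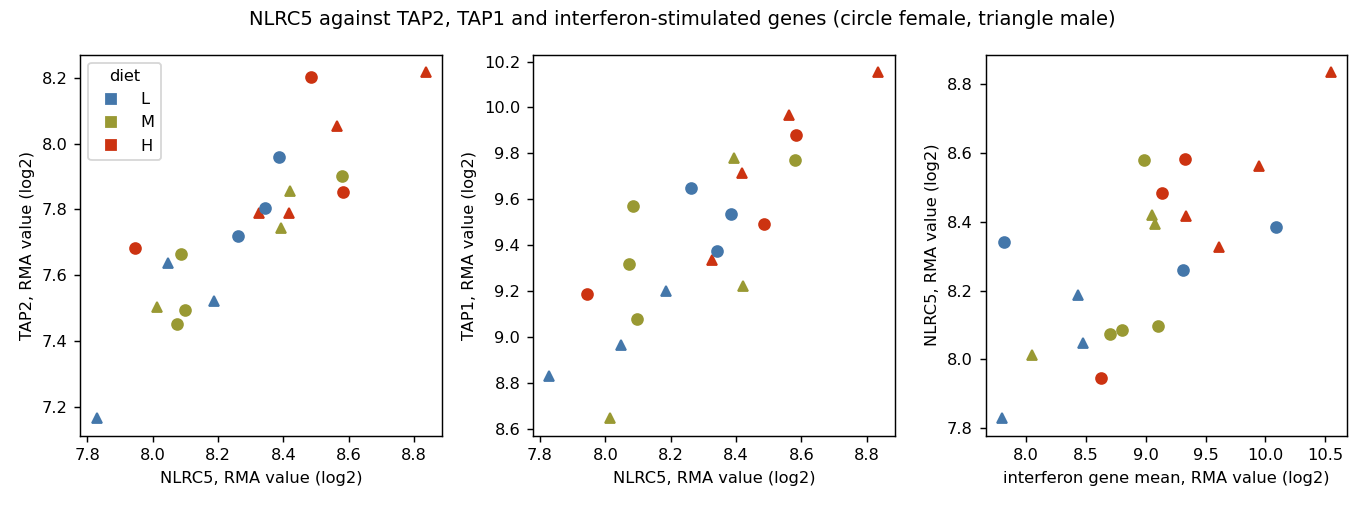
RMA values (log2) of TAP2 (left) and TAP1 (middle) against NLRC5, and of NLRC5 against the mean of the interferon-stimulated genes (right), with 1 point per animal coloured by diet (circles females, triangles males). The diets share one band in the left panel (r = 0.87), and the points spread more widely in the right panel (r = 0.73). Each gene is shown by its main probe set.

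Split by sex, 4 of the 9 genes separated H from L males. TAP1 was 9.34 to 10.15 in H males and 8.83 to 9.20 in L males, and B2M was 12.91 to 13.02 in H males and 12.53 to 12.75 in L males. TAP2 was 7.79 to 8.22 in H males and 7.17 to 7.64 in L males, and NLRC5 was 8.33 to 8.84 in H males and 7.83 to 8.19 in L males. For these 4 of 9 genes the 4 H males were above the 3 L males without overlap, and for 0 of 9 below, beside 4.82% and 2.58% of all probe sets. Between these 4 genes r ran from 0.52 to 0.87 over the 20 animals, so they do not count as 4 independent results. The exact permutation test over the 35 splits of the males gave p = 0.0286, the smallest possible, for B2M, TAP2 and NLRC5, 0.0571 for TAP1 and 0.171 for SLA-1. This split by sex was not planned beforehand, and these p-values are not adjusted for the 9 genes.

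In females 0 of 9 genes separated the 3 H from the 3 L animals, beside 4.8% of all probe sets with H above L and 9.62% with H below L. An exact test of 3 against 3 animals cannot reach 0.05. TAP1 was 9.19 to 9.88 in H females and 9.38 to 9.65 in L females, and B2M was 12.68 to 12.93 in H females and 12.82 to 13.03 in L females.

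The interaction of diet and sex had an unadjusted p under 0.05 in limma for 4 of 9 genes, beside 5.12% of all probe sets, and adjusted p = 0.898 for each of them over all probe sets. The male H minus L difference exceeded the female one by 0.80 ± 0.36 (SE) for TAP1 (0.79 in males, −0.00073 in females), 0.69 ± 0.30 for PDIA3 (0.20 in males, −0.49 in females), 0.66 ± 0.31 for TAPBP (0.38 in males, −0.28 in females) and 0.46 ± 0.21 for B2M (0.32 in males, −0.15 in females). The mean of the interferon-stimulated genes was 9.34 to 10.55 in H males and 7.80 to 8.47 in L males, and 8.63 to 9.33 in H females and 7.81 to 10.09 in L females. With this mean as a covariate 0 of 9 genes had an interaction p under 0.05, and its part in the difference between the sexes was not tested.

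**Figure D5:**
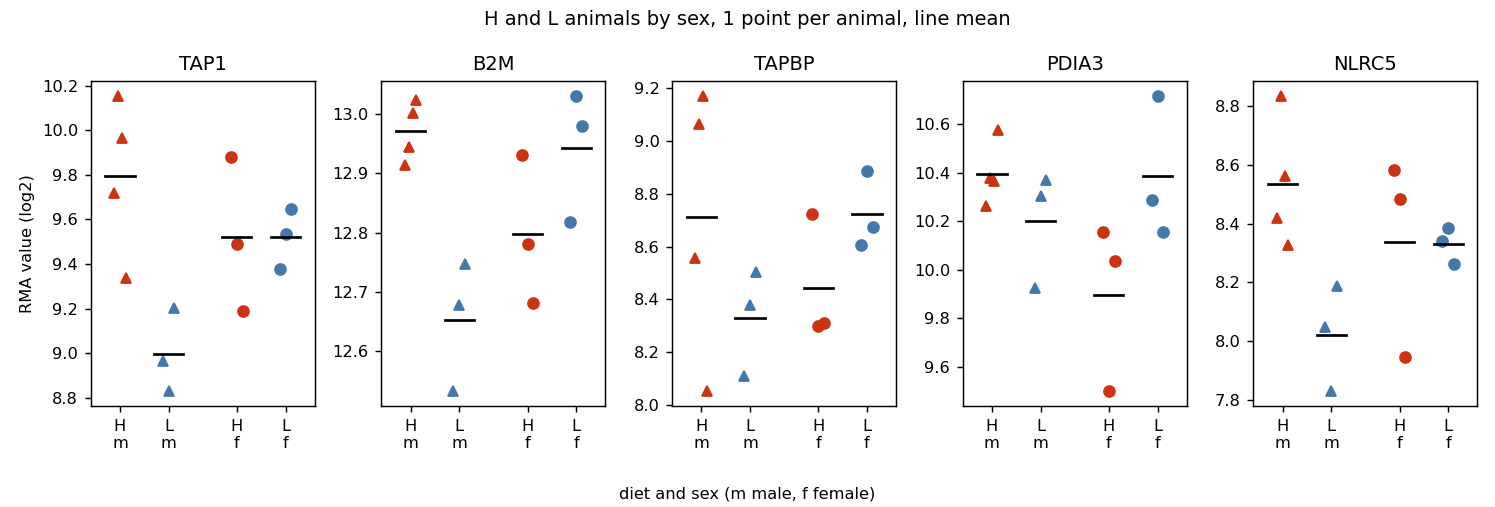
RMA values (log2, y axis) of 5 genes in H (red) and L (blue) animals, by sex (x axis, m male, f female), with 1 point per animal and a line at the mean. H males lie above L males without overlap for TAP1, B2M and NLRC5, and H and L females overlap for all 5 genes.

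Of 62 other listed genes of the pathway 45 were annotated and 43 tested for H against L, with 0 called, 2 higher and 2 lower at p under 0.05, and a median log2 difference of −0.10 (16 above 0, 27 below). Of all probe sets 8.57% passed p under 0.05 in either direction, so these counts are near the background. The higher ones were SLA-11 and SLA-7, both from the list of class I and class I-like chains. SLA-11, a pseudogene in RefSeq, ran from 10.31 to 10.63 in H, 9.86 to 10.40 in M and 9.80 to 10.40 in L animals, with H minus L of 0.30 ± 0.12 (SE, limma, q = 0.457) and H minus M of 0.34 ± 0.11 (q = 0.585). SLA-7, a non-classical heavy chain, ran from 7.15 to 8.06 in H and from 6.86 to 7.68 in L animals, a difference of 0.37 ± 0.17 (q = 0.521).

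The lower genes were CD8B, a chain of the co-receptor that binds class I molecules on T cells, and GANAB, the glucosidase subunit that trims glycans so that calreticulin can bind. CD8B ran from 5.18 to 6.74 in H and from 6.15 to 7.10 in L animals, a difference of −0.64 ± 0.27 (SE, limma, q = 0.492), and GANAB from 7.90 to 8.62 in H and from 8.44 to 8.88 in L animals, a difference of −0.28 ± 0.13 (q = 0.530). Of the T cell markers 3 of 8 were lower at p under 0.05 in the same animals. Next by p were RFXANK, a subunit of the RFX factor at MHC promoters, with −0.19 ± 0.13 (q = 0.684), and PSME2, a subunit of a proteasome activator, with −0.34 ± 0.24 (q = 0.696).

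By role, the 8 tested class I-like chains had a median H minus L of 0.08, the 14 genes of peptide loading and trimming −0.12 (1 lower at p under 0.05), the 4 of the immunoproteasome −0.18, the 11 of transcription −0.10, the 4 receptors of class I −0.23 (1 lower) and the 2 of surface turnover 0.01.

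Likeness to other genes was measured as r over the 20 animals after removal of diet and sex, among 9358 genes, where all pairs of genes had a median of 0.03 and a 95th percentile of 0.65. NLRC5 was most like GPR107 (0.86), IRF9, a subunit of the interferon-activated factor ISGF3 (0.81), and DHX8 (0.81). TAP2 was most like STX11 (0.86), PAFAH2 (0.84) and IRF1, an interferon-regulated transcription factor (0.78). TAP1 was most like SHC1 (0.87), CSF1, a growth factor of monocytes (0.83), and EYA3 (0.82).

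TAPBP was most like PSMD11, a proteasome subunit (0.92), TRIM14 (0.88) and PIM2 (0.88), and B2M most like DCUN1D3 (0.93), TOB1 (0.90) and TBCCD1 (0.90). PDIA3 was most like DAP3 (0.95), COPB2, a coat protein of vesicles between Golgi and endoplasmic reticulum (0.95), and RCN2, a calcium-binding protein of the endoplasmic reticulum (0.94). Among the heavy chains SLA-1 was most like LOC100513601 (0.82), which shares its name as a synonym, RPL13 (0.75) and LOC100153925 (0.75). SLA-2 was most like AURKAIP1 (0.83), SLA-5, another class I chain (0.78), and RAMP2 (0.78), and SLA-3 most like CYB5R1 (0.77), INPP1 (0.75) and TMED3 (0.75).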

How the data were processed

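PBMC RNA of 20 piglets was hybridized to the Affymetrix snowball array. Per the submitters' processing notes, GCOS 1.1.1 and RMA were used, and the deposited RMA values are on the log2 scale. RMA equalizes the intensity distributions of the arrays, so a shift of all transcripts together would be largely lost. The methods state that an array was excluded in quality control. The number of arrays limits the precision.

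Left out were 123 control probe sets. The filter on the array median (80% of arrays) took the place of presence calls, which were not used here. Gene names came from the platform annotation, where 26426 probe sets had a name and 21419 none. Diet and sex were fitted with limma 3.58.1 under R 4.3.3 over 3 diets and 22127 probe sets, and the litter effect of the methods could not be included. The numerical thresholds of p and q are those of the methods, where they were equivalent. With the Storey q-values computed here, q under 0.21 was the stricter, and 6 of 22127 probe sets were called for H against L. Exact tests and relations were computed with scipy 1.17.1, numpy 2.4.6 and Python 3.11.15, and plotted with matplotlib 3.10.9.

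Named were all members, the 6 pathway genes of smallest p in H against L, the 3 genes most like each member, and genes that a result turned on. Members and lists were chosen with earlier results of these data known. Alternatives were no filter, a filter on the 75th percentile, no sex term, unmoderated variances, array weights, centred arrays, cyclic loess, gene means over probe sets, 2 diets alone, a Benjamini-Hochberg threshold, marker covariates and omission of each animal. The interferon covariate and Spearman's rho were chosen after seeing the data. The comparisons within each sex, with their overlap counts and exact tests, were also not planned beforehand, and their p-values are unadjusted. On simulated data for H against L (22127 probe sets), 184 of 200 changes of 1 log2 unit were recovered with 62 false calls, 199 of 200 changes of 2 units with 62, and 0 calls were made without a change. The simulated noise was normal and independent between probe sets. Recovery of differences as small as those of the 9 genes (0.43 at most in H minus L) was not tested. In the measured data OAS1 differed by 1.59 and was not called (q = 0.426, limma), so these shares do not carry over to the data. Promoter and protein sequences were not analysed here.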

Additional observations from a re-analysis of the deposited data

Results flagged for a closer look

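For 4 genes the H minus L difference was not the same in males and females at an unadjusted p under 0.05 of the interaction of diet and sex, and none of the 4 passed after adjustment over all probe sets (adjusted p = 0.898). The male minus female difference was 0.80 for TAP1, 0.69 for PDIA3, 0.66 for TAPBP and 0.46 for B2M. Among the 27 groups of 9 genes in 3 diets, 0 held an animal set apart from the others by Dixon's test.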

How the results depend on the processing

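With array weights 3 of 9 genes were called in H against L, beside 943 of 22127 probe sets against 6 without weights (weights 0.390 for M animal 6 to 2.15 for H animal 1). Under the other alternatives run 0 of 9 were called in each comparison. The count at p under 0.05 in H against L (3) was 1 with gene means over probe sets, 1 with the marker covariates and 0 with the interferon covariate. In H against M (1) it was 0 with cyclic loess, gene means and either set of covariates. The exact test count (1) was 0 with gene means. The interaction count (4) was 2 with unmoderated variances, 1 with cyclic loess and 0 with the interferon covariate. Of the relations with lists (7), 2 passed without the 2 farthest animals.

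Leaving out each animal, numbered in accession order, gave 0 to 4 genes at p under 0.05 in H against L (0 without H 4, L 3 or L 6, 1 without H 2 or H 3), 0 to 3 in H against M (0 without H 3, H 4, M 3, M 6 or M 7, 2 without M 1 or M 2, 3 without H 7), 0 to 3 in the exact test (0 without H 1, H 3, H 4, L 2, L 3 or L 6, 2 without L 1 or L 4, 3 without H 5 or H 7) and 0 to 5 in the interaction (0 without L 2 or L 4, 1 without H 3, H 4, H 6, H 7, L 3 or L 5, 2 without H 5). H minus L stayed above 0 for SLA-1 (0.28 to 0.46), TAP1 (0.34 to 0.54), TAP2 (0.22 to 0.37) and NLRC5 (0.20 to 0.37), although SLA-1 was 0.0035 with gene means.

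Of 864 single values, 64 had the other sign. In H minus L these were, with the interferon covariate, B2M −0.053 and TAPBP −0.17, with gene means SLA-2 −0.011 and TAPBP −0.00188, and SLA-3 without sex 0.0057, with cyclic loess 0.0011, with 2 diets alone 0.00437 and with marker covariates 0.12. In H minus M they were SLA-3 with array weights −0.10, cyclic loess −0.00696, gene means −0.15 and the interferon covariate −0.16, and TAPBP with the interferon covariate −0.038. In M minus L they were, with array weights, B2M 0.023, PDIA3 0.039 and SLA-3 0.087. With gene means they were NLRC5 −0.048, SLA-1 −0.099, SLA-3 0.038, TAP2 −0.031 and the median −0.028, with the interferon covariate TAP2 −0.016 and the median −0.016, and SLA-3 was reversed with cyclic loess 0.00808 and with marker covariates 0.046. Over left-out animals the ranges that crossed 0 were, in H minus L, PDIA3 −0.20 to 0.010, SLA-2 −0.043 to 0.090, SLA-3 −0.083 to 0.12 and TAPBP −0.026 to 0.16. In H minus M they were PDIA3 −0.14 to 0.070 and SLA-3 −0.14 to 0.15, and in M minus L B2M −0.070 to 0.032, NLRC5 −0.0077 to 0.11, PDIA3 −0.13 to 0.047, SLA-3 −0.15 to 0.15, TAP1 −0.027 to 0.19, TAP2 −0.068 to 0.084 and the median −0.027 to 0.084. The cause was not tested.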
